A study of Mus musculus with 9 samples.

Results

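Gene expression was compared between RSC96 cells given exosomes of menstrual blood-derived stem cells (MenSCs) and RSC96 cells given the conditioned medium of those stem cells. The comparison covers the 555 genes that the authors listed for this pair of groups, out of 819 genes that appear in any of the 3 pairings of the series. Every listed gene was kept, and the difference was recomputed as the mean of the exosome group minus the mean of the conditioned-medium group. RSC96 is an immortalised rat Schwann cell line, and every listed gene has a rat identifier although the labels name Mus musculus as the organism. The exosome group, E-SCs, and the conditioned-medium group, M-SCs, have 3 libraries each, and a control group, SCs, has 3 more. Neither the dose nor the time of treatment is given in the labels used here, and all cells come from the same line. The titles place the control cells in co-culture with control MenSCs, while the design text simply names them control SCs. SCs values are therefore given only as a further level and not as an untreated baseline. No label states that replicates are separate cultures. The p-values therefore reflect only how far the 3 libraries of each group spread, and that spread may be technical.

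Schwann cells wrap and nourish the axons of peripheral nerves. After nerve injury they leave the myelinating state, divide, and secrete chemokines that draw in macrophages. Conditioned medium carries what stem cells secrete, soluble proteins included, whereas exosomes are small membrane vesicles that carry protein and RNA. Whether the cells were Schwann cells could not be checked on marker levels, because the table holds selected genes only. Of 41 genes of Schwann cell identity and myelin, 4 were listed, and the other 37 were not analysed here. No listed gene belonged to the 10 fibroblast, 10 endothelial or 10 neuron markers. Cd14 was the one listed gene of 16 macrophage and leukocyte markers, and Nt5e the one of 11 mesenchymal stem cell markers.

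Per the values, the listed genes all had p at or under 0.0497 and at least a 2-fold difference in the authors' deposited table, between these same 6 libraries. By the ratio of FDR to p in the authors' deposited table, 18514 genes had been tested. A gene outside the table was therefore not shown to be unchanged. The tests below run on genes already chosen for this difference, so they describe how the libraries spread and lend no independent support. Levels are library-scaled read counts, with values of a gene in every library put on the read scale of the first E-SCs library. Differences are on the log2(scaled count + 1) scale, on which genes with few reads change less than their counts do. FPKM, which scales fragments by transcript length and library size, was used wherever levels of different genes were set side by side. The 6 libraries had relative depths of 0.868 to 1.16 and between 446313 and 572451 reads over the listed genes.

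Exosome-treated cells stood below medium-treated cells at more of the listed genes than they stood above them. Of the 555 genes, 325 were lower in E-SCs and 230 were higher. By limma's test with Benjamini-Hochberg adjustment over the table, 511 differed at an adjusted p under 0.05, which is 92.1% of the genes. Of these, 203 rose in E-SCs relative to M-SCs, or 36.6% of the table, and 308 fell, or 55.5%. The 6 library values did not overlap between the groups at 499 genes, or 89.9%. The authors' deposited table has an FDR under 0.05 for 441 genes, or 79.5%. Counts of list members given below are to be read beside these shares. Bringing the libraries to equal medians over these genes raised every difference by 0.46 and gave 460 calls, 225 higher and 235 lower. The medians come from the selected genes themselves, most of which were lower in E-SCs. This centring evens out the directions by construction, so the size of the excess of lower calls cannot be judged from it. No single gene changed direction under the centring, since the smallest absolute difference was 1.0.

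At an average of 1 FPKM or more in either group, 176 of 282 were lower in E-SCs and 106 were higher. In this range 169 genes fell and 101 rose by the same test, and 12 did not pass it. The share of genes lower in E-SCs was 38.5% of the 65 genes under 0.1 FPKM, between 59.6% and 63.6% in the 3 ranges from 0.1 to 100 FPKM, and 70.0% of the 20 genes above 100 FPKM. Most differences at these levels were modest. The median absolute difference was 1.29, and 194 of the 282 genes lay under 1.5. Replicates were close, with a median log2 SD over 3 libraries of 0.14 in E-SCs against 0.13 in M-SCs, against 0.53 and 0.48 for the 273 genes under 1 FPKM. Absolute differences of at least 2 were found at 39 of the 282 genes, 27 lower and 12 higher in E-SCs.

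**Figure D1:**
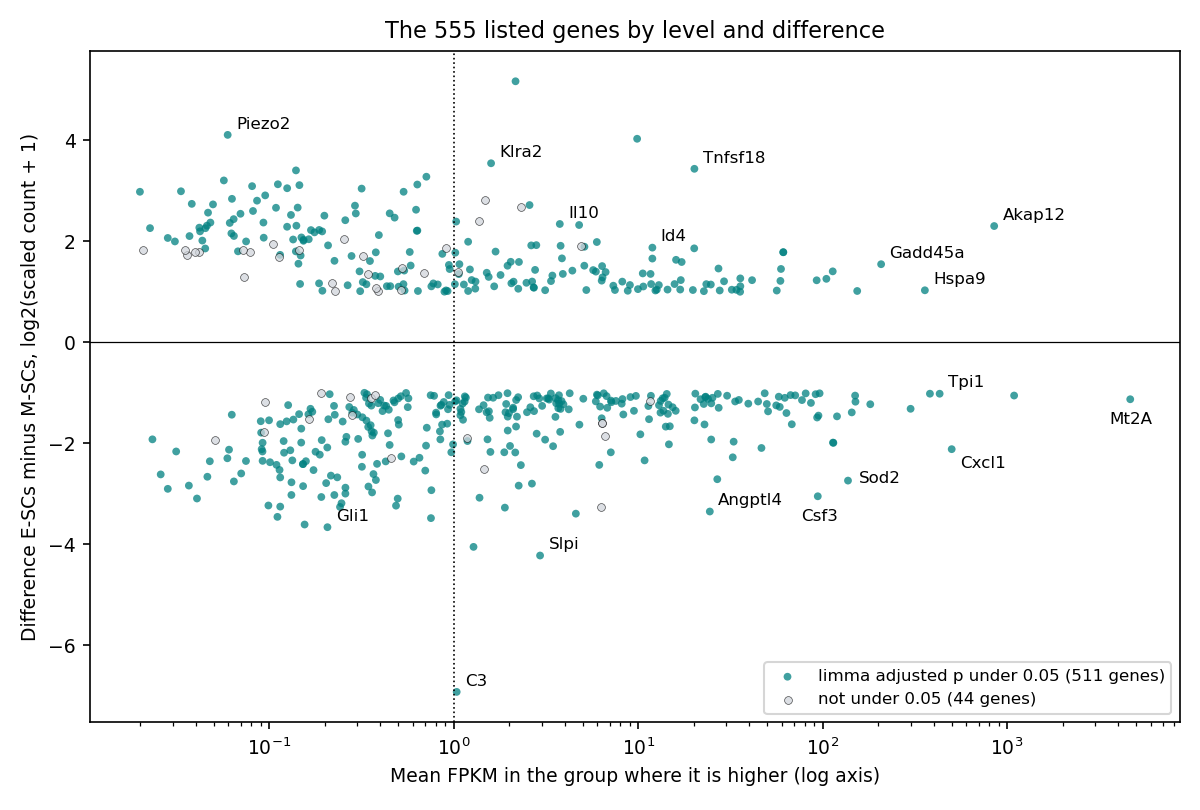
Each point is 1 of the 555 listed genes, with the larger of the 2 group means of FPKM on a log axis against the E-SCs minus M-SCs difference on the log2(scaled count + 1) scale; the dotted line marks 1 FPKM and grey points did not pass limma's test. No point lies between -1.0 and 1.0, since the authors selected on size, and the genes with the highest FPKM are mostly below 0, with Akap12 as the most abundant gene above it.

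Chemokines and the genes around the NF-kB transcription factor were lower after exosomes than after conditioned medium. All 10 listed genes of a list of 37 fell, and none rose, beside 58.6% lower in E-SCs over the whole table. The median difference of these 10 was -1.74, beside -1.10 for all 555 genes and -1.44 for the genes lower in E-SCs. Their summed level was 231 to 247 FPKM in the E-SCs libraries and 926 to 1038 FPKM in the M-SCs libraries.

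Among the secreted ligands of this list, Csf3, the granulocyte colony-stimulating factor that drives neutrophil production, differed most. It had scaled counts of 486, 464 and 484 in E-SCs against 3774, 4192 and 3928 in M-SCs. The groups lay far apart, and the SCs libraries, at 635, 538 and 593, were near E-SCs. The difference was -3.05 (SE 0.06, n = 3 per group, limma adjusted p = 2e-09).

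Cxcl1, a neutrophil-attracting chemokine, was the most abundant gene of the list at 116 ± 3.3 FPKM in E-SCs against 501 ± 29 FPKM in M-SCs (SD, n = 3). Its scaled counts were 3562, 3368 and 3501 in E-SCs, 14277, 16110 and 14874 in M-SCs and 4185, 3974 and 4007 in SCs. All 3 M-SCs libraries were above the other 6, and Cxcl1 fell by 2.12 on the log2 scale (SE 0.05, limma adjusted p = 2.3e-09) from M-SCs to E-SCs. Cxcl6, of the same chemokine subfamily, had 367, 353 and 345 in E-SCs against 1622, 1817 and 1736 in M-SCs, a difference of -2.28 (SE 0.07). Cxcl3, a close relative of both, differed by -1.99 (SE 0.11). The monocyte attractant Ccl2 had 805, 802 and 737 in E-SCs against 3117, 3267 and 2944 in M-SCs, again a difference of -1.99 (SE 0.06). Ccl7, its close relative, was a low gene with 66 reads in all E-SCs libraries and 153 in all M-SCs libraries, and differed by -1.05 (SE 0.26).

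The other listed members act inside the cell. Nfkbia, the inhibitor that holds NF-kB in the cytoplasm and is itself induced by it, had 1815, 1713 and 1767 in E-SCs against 4499, 5227 and 4785 in M-SCs. The difference was -1.45 (SE 0.06), with no overlap. Nfkbiz and Bcl3, nuclear cofactors of the same I-kB family, differed by -1.50 (SE 0.10) and -1.22 (SE 0.10). Ptges, the inducible synthase of prostaglandin E2, showed the widest spread of the list in M-SCs, with 205, 222 and 314 against 128, 131 and 94.5 in E-SCs, and differed by -1.05 (SE 0.20).

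Acute-phase, complement and innate defence genes followed the same direction. Of 30 genes on the list 15 were listed, and all 15 fell, with a median difference of -1.82. The sum of their levels was 159 to 176 FPKM in E-SCs and 528 to 555 FPKM in M-SCs. Cd14, a co-receptor for bacterial lipopolysaccharide that also marks macrophages, moved with them, at 2.91 ± 0.23 FPKM in E-SCs against 10.3 ± 1.0 in M-SCs (SD, n = 3). It was the one macrophage marker of 16 in the table, and its part in the result was not tested.

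Sod2, the manganese superoxide dismutase of mitochondria and a known NF-kB target, carried the largest difference among the genes of this list above 10 FPKM in a group. Its scaled counts were 1342, 1501 and 1310 in E-SCs, 9553, 8837 and 9293 in M-SCs and 1569, 1529 and 1826 in SCs. The M-SCs libraries stood apart from the other 6, a position that the selection against SCs partly fixes. The difference was -2.74 (SE 0.06, limma adjusted p = 2.3e-09).

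C3, the central complement protein, was nearly silent in E-SCs, with 0, 2.06 and 0 scaled counts against 171, 162 and 193 in M-SCs. Over each group these were 2 reads and 553 reads, a depth-corrected ratio of 251 in favour of M-SCs with an exact 95% interval of 69.0 to 2074 that covers counting error only. Both reads came from the second E-SCs library, without which C3 was at least 110.0-fold lower in E-SCs against a floor of 3 reads over the group, and the ratio was 162 without the first E-SCs library. The SCs libraries had 0, 0 and 2.14. Its level in M-SCs, 1.04 ± 0.099 FPKM, was still low beside the chemokines. C1s, a protease that starts the classical complement pathway, was abundant in both groups and differed by -1.28 (SE 0.03), with 24.3 ± 0.36 FPKM in E-SCs against 58.6 ± 0.47 in M-SCs.

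Slpi, a secreted inhibitor of neutrophil proteases, had 8, 8.25 and 0 in E-SCs against 104, 80.4 and 62.0 in M-SCs, a difference of -4.22 (SE 0.82). Orm1, the acute-phase protein orosomucoid, had 62, 19.6 and 41.5 in E-SCs against 182, 219 and 213 in M-SCs, a difference of -2.43 (SE 0.37). The copper-carrying oxidase ceruloplasmin, Cp, was far more abundant and tighter, with 2857, 2605 and 2707 in E-SCs against 8606, 8441 and 8107 in M-SCs, a difference of -1.62 (SE 0.04). In none of these 3 genes did a library of one group reach the other group. S100a8, a calcium-binding protein of neutrophils, had 17 reads in all E-SCs libraries and 86 in all M-SCs libraries. Its difference was -2.84 (SE 0.90, limma adjusted p = 0.018). The call was lost without the first E-SCs library, at a limma adjusted p of 0.066, and without any one of the M-SCs libraries, at 0.0507 to 0.0789. It was also lost with 0.1 in place of 1 added to the scaled counts, at 0.057.

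The other members of this list have varied roles. Zc3h12a, an RNase that degrades cytokine mRNAs, had 745, 767 and 832 in E-SCs against 3065, 3141 and 2965 in M-SCs, a difference of -1.97 (SE 0.06). Socs3, the feedback inhibitor of cytokine receptor signalling, had 1612, 1583 and 1446 in E-SCs against 3747, 4318 and 4092 in M-SCs, a difference of -1.39 (SE 0.06). Tnfaip6, a secreted hyaluronan-binding protein, and Cebpd, a transcription factor of the acute-phase response, differed by -1.66 (SE 0.08) and -1.08 (SE 0.13). The remaining members, Ptx3, Lcn2 and Tlr2, ranged from -3.23 to -1.44, and none overlapped between the groups. Ptx3, at -3.23, was the only listed member of this list below 1 FPKM in both groups.

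**Figure D2:**
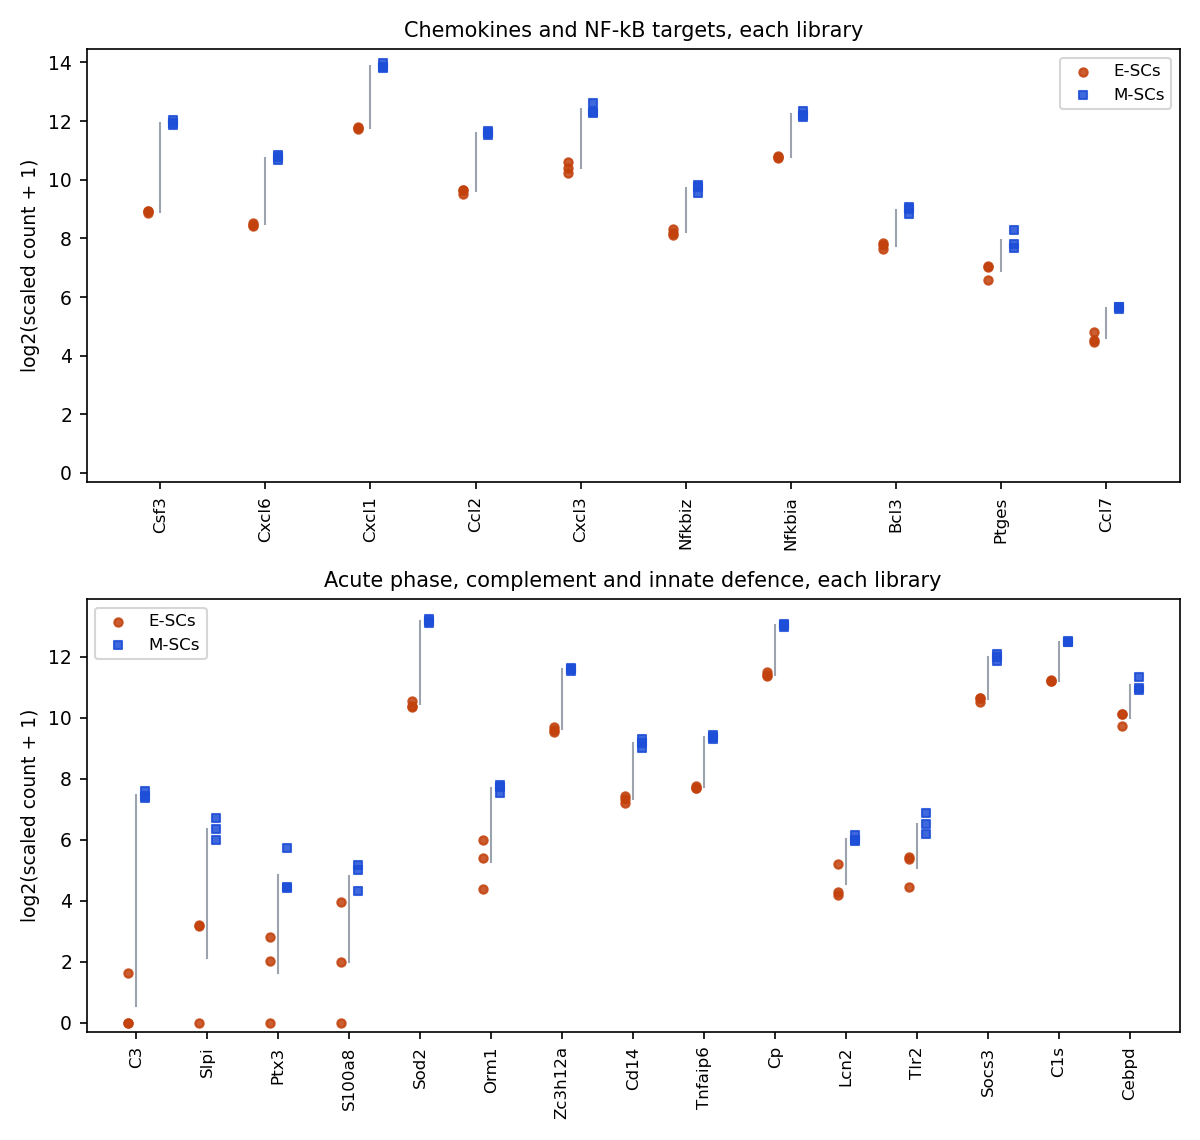
Points are the log2(scaled count + 1) values of the 3 E-SCs and 3 M-SCs libraries for the 10 listed chemokine and NF-kB genes (top) and the 15 listed acute-phase, complement and defence genes (bottom); vertical lines join the group means. In all 25 genes the 3 M-SCs libraries lie above the 3 E-SCs libraries, and the spread between E-SCs libraries is widest for the genes with few reads at the left of the lower panel. Over the whole table the groups did not overlap at 89.9% of genes.

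Genes outside these lists point the same way in part only. These were chosen after their values were seen. Casp1 and Nlrp3, the protease and the sensor of an inflammasome, were low genes that fell in E-SCs, with differences of -1.76 (SE 0.40) and -1.97 (SE 0.45). Casp4, the rodent inflammatory caspase that senses intracellular lipopolysaccharide, went the other way, with 2443, 2485 and 2323 in E-SCs against 720, 744 and 645 in M-SCs. Its difference was 1.78 (SE 0.07, limma adjusted p = 3.6e-08), and its level was 61.1 ± 2.3 FPKM in E-SCs. The prothrombotic F3, tissue factor, also rose, by 1.23 (SE 0.04). In the interferon list 4 of 35 genes were listed, 2 in each direction. Oasl and Rsad2, antiviral effectors, rose by 1.23 (SE 0.08) and 1.04 (SE 0.07), while Parp14 and Oas1a fell by 1.21 (SE 0.05) and 1.28 (SE 0.36). The call for Oas1a was lost with equal library medians (limma adjusted p = 0.0706).

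Genes induced by low oxygen were mostly lower after exosomes. Of 47 genes on the hypoxia and glycolysis list 11 were listed, of which 9 fell and 2 rose, with a median of -2.02. The share lower in E-SCs was 58.6% over the whole table. Angptl4, a secreted inhibitor of lipoprotein lipase that hypoxia and PPAR receptors both induce, had 159, 168 and 118 in E-SCs against 1484, 1453 and 1574 in M-SCs. SCs stood between the groups at 414, 408 and 412, so no library of any group reached another. The E-SCs minus M-SCs difference was -3.35 (SE 0.13, limma adjusted p = 5.2e-08).

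Stc1, a secreted glycoprotein hormone, had 23, 20.6 and 26.5 in E-SCs, 281, 247 and 183 in M-SCs and 64.8, 57.1 and 71.7 in SCs, again with SCs in between. The difference was -3.27 (SE 0.22). Adm, the vasodilator peptide adrenomedullin, had 98, 109 and 81.8 in E-SCs, 477, 554 and 440 in M-SCs and 182, 202 and 155 in SCs, a difference of -2.34 (SE 0.14). The same order held for it, E-SCs lowest and M-SCs highest, with no overlap.

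Among enzymes and transporters of the list, Slc16a3, the lactate exporter of glycolytic cells, had 785, 804 and 704 in E-SCs against 3173, 3285 and 3319 in M-SCs, a difference of -2.09 (SE 0.06). Tpi1, a glycolytic enzyme, was the most abundant of them at 214 ± 2.3 FPKM in E-SCs against 431 ± 3.2 in M-SCs, and differed by -1.02 (SE 0.02). Egln1 and Egln3, prolyl hydroxylases that mark the hypoxia-inducible factor for destruction, differed by -1.14 (SE 0.07) and -2.18 (SE 0.35). Ndrg1, a stress-responsive gene also known for a role in Schwann cells and peripheral neuropathy, differed by -1.21 (SE 0.04). Higher in E-SCs were Vldlr, a lipoprotein receptor, by 1.20 (SE 0.16) and Hif3a, a hypoxia-inducible factor subunit, by 1.30 (SE 0.51).

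A few secreted proteins known for roles in vessels were also in the table. Angpt1 and Angptl2 belong to the list of neurotrophic and growth factors and are counted with it below, while the others are named singly. Angpt1, the Tie2 ligand angiopoietin-1, had 16, 34.0 and 32.3 in E-SCs, 284, 277 and 288 in M-SCs and 41.7, 59.0 and 66.4 in SCs, a difference of -3.39 (SE 0.28). Angptl2, a related secreted protein, differed by -1.26 (SE 0.13). The vasoconstrictor peptide Edn1 and the peptide hormone Apln, both picked after their values were seen, differed by -2.18 (SE 0.15) and -1.52 (SE 0.06), with 84, 69.1 and 59.9 against 325, 313 and 328 for Edn1. No library overlapped between the groups at these 4 genes.

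Genes of the G1/S transition and of DNA replication were lower in exosome-treated cells. The study set out to find genes tied to Schwann cell proliferation, and 9 of 66 genes on this list were in the table. All 9 fell, with a median of -1.13 and a narrow range from -1.77 to -1.05, beside 58.6% lower over the whole table. Their summed level was 103 to 110 FPKM in E-SCs and 224 to 235 FPKM in M-SCs. None of the 33 genes on a list of G2/M and mitosis was in the table.

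E2f2, a transcription factor that switches on S-phase genes, had the largest difference of the list. Its scaled counts were 163, 152 and 197 in E-SCs against 562, 614 and 571 in M-SCs, a difference of -1.77 (SE 0.12, limma adjusted p = 1.4e-06). Cdc6 and Cdt1, which load the replicative helicase onto origins, differed by -1.29 (SE 0.07) and -1.13 (SE 0.07). For Cdc6 the counts were 607, 604 and 666 in E-SCs against 1509, 1625 and 1448 in M-SCs, so the groups were well separated. Mcm3 and Mcm7, subunits of that helicase, differed by -1.17 (SE 0.04) and -1.05 (SE 0.04). Mcm7 was the most abundant, at 34.6 ± 1.6 FPKM in E-SCs against 71.0 ± 0.63 in M-SCs. The flap endonuclease Fen1, the helicase activator subunit Gins1, the polymerase subunit Pola2 and the chromatin assembly subunit Chaf1b lay between -1.22 and -1.06. Dut, which clears dUTP ahead of replication and was picked after its values were seen, differed by -1.01 (SE 0.04) at 48.2 and 96.3 FPKM.

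Histone genes, grouped after their values were seen, numbered 5 under their symbols, of which 4 fell and Hist3h2ba rose. Hist3h2ba had 113, 146 and 107 in E-SCs, 23.3, 41.3 and 27.5 in M-SCs and 154, 105 and 131 in SCs, a difference of 1.98 (SE 0.27). The 4 that fell, Hist2h3c2 under 2 identifiers among them, had between 41 and 68 reads in E-SCs libraries together and between 111 and 202 in M-SCs libraries together. Histone genes are near-identical copies of one another, so the authors' counting could split reads between them, and most replication-dependent histone mRNAs lack the poly(A) tail on which these libraries were enriched.

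**Figure D3:**
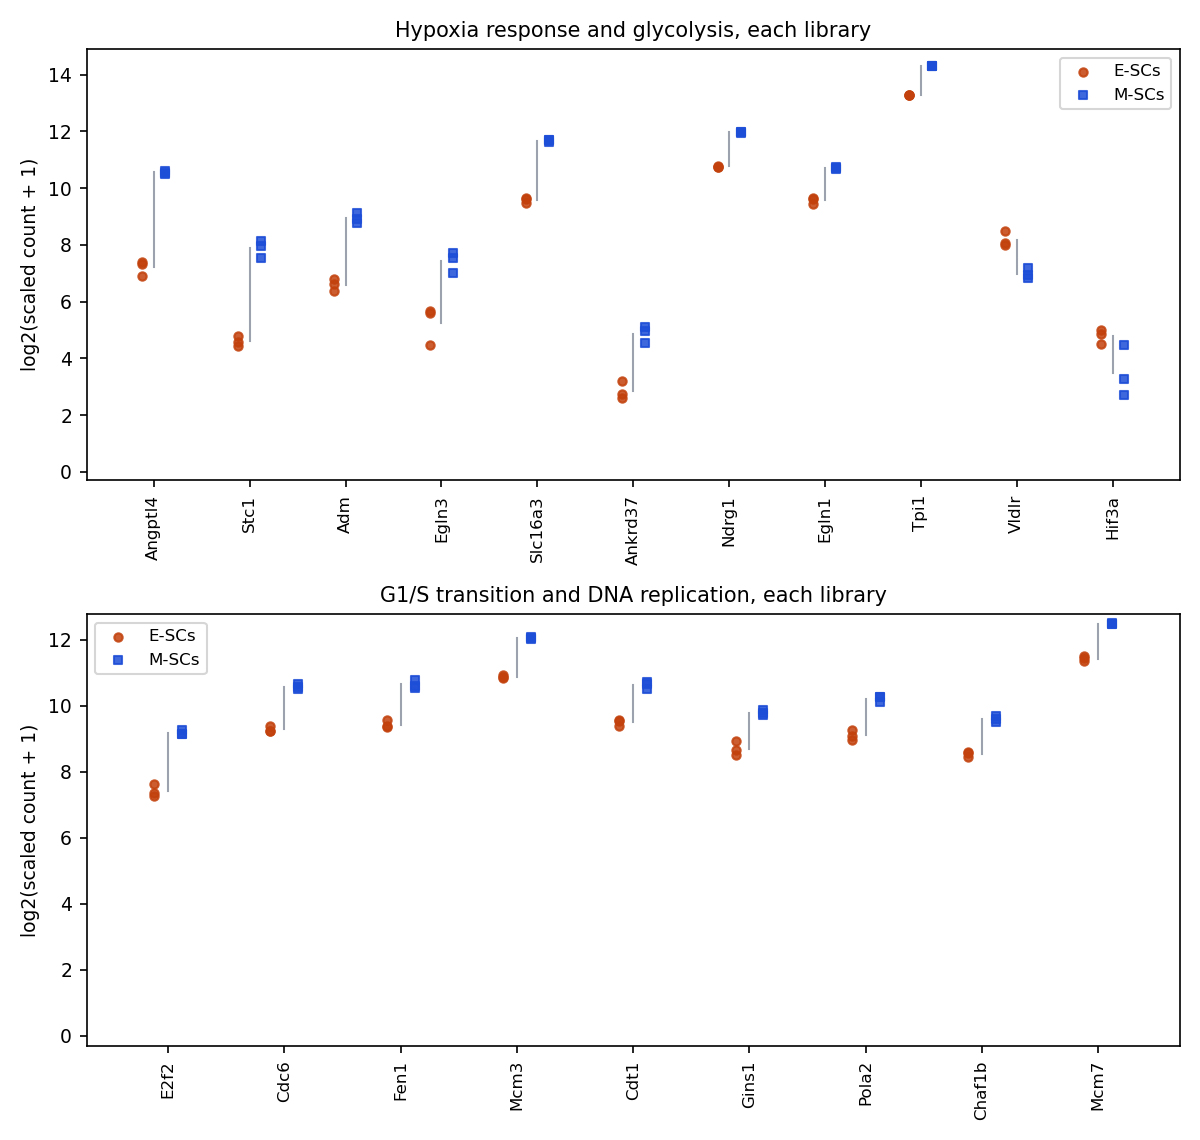
Points are the log2(scaled count + 1) values of the 3 E-SCs and 3 M-SCs libraries for the 11 listed hypoxia and glycolysis genes (top) and the 9 listed genes of G1/S transition and replication (bottom); vertical lines join the group means. In 9 of the 11 and in 9 of the 9 genes every M-SCs library lies above every E-SCs library, with Vldlr and Hif3a in the opposite order. Over the whole table the groups did not overlap at 89.9% of genes.

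Metal-handling and redox genes included the most abundant gene of the table. Mt2A, a metallothionein that binds zinc and copper, had 2146 ± 103 FPKM in E-SCs against 4649 ± 96.2 in M-SCs (SD, n = 3). Its scaled counts were 26230, 27613 and 25253 in E-SCs against 56783, 57141 and 58806 in M-SCs, a difference of -1.13 (SE 0.03). Mt1m, a second metallothionein, differed by -1.05 (SE 0.05), with 529 ± 17 and 1091 ± 87 FPKM. Together both genes made up 33.2 to 35.04% of the FPKM over listed genes in E-SCs libraries and 45.9 to 47.4% in M-SCs libraries. Metallothioneins are a family of near-identical copies, and how multiply mapped reads were counted was not stated.

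Zinc transporters moved in opposite directions. Slc30a1, which exports zinc from the cell, had 869, 776 and 886 in E-SCs, 350, 415 and 459 in M-SCs and 990, 1118 and 1049 in SCs. It rose by 1.05 (SE 0.11) in E-SCs relative to M-SCs. Slc39a8, a zinc and manganese importer picked after its values were seen, had 375, 357 and 341 in E-SCs, 794, 835 and 774 in M-SCs and 337, 385 and 358 in SCs, a difference of -1.16 (SE 0.07). Tfrc, the transferrin receptor for iron uptake, likewise picked afterwards, had 3148, 3054 and 2961 in E-SCs against 8208, 7632 and 7810 in M-SCs, a difference of -1.37 (SE 0.04). For both importers E-SCs lay near SCs, which the selection of genes with SCs values partly fixes.

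On the list of oxidative stress and metallothionein genes, 5 of 33 were in the table, 4 of which fell and 1, Slc30a1, rose. Aldh3a1, an aldehyde dehydrogenase, had 1850, 1930 and 1889 in E-SCs against 5357, 5124 and 5442 in M-SCs, a difference of -1.49 (SE 0.04). Gsta1, a glutathione transferase, differed by -2.43 (SE 0.28). Glrx, which removes glutathione from proteins, was outside the list and very abundant, at 121 ± 1.2 FPKM in E-SCs against 300 ± 8.8 in M-SCs, and differed by -1.32 (SE 0.03). Uqcrh, a subunit of respiratory complex III, differed by -1.23 (SE 0.06).

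Lipid genes were few. Of 24 genes of fatty acid oxidation and PPAR signalling 4 were listed, 3 of which fell. Cpt1a, the carnitine transferase that admits long-chain fatty acids to mitochondria, had 520, 524 and 483 in E-SCs, 2142, 2015 and 2044 in M-SCs and 682, 691 and 659 in SCs, a difference of -2.02 (SE 0.06). Pparg, the fatty acid receptor of adipocytes and macrophages, rose, with 529, 544 and 559 in E-SCs against 241, 240 and 269 in M-SCs and a difference of 1.12 (SE 0.09). Fabp3, a fatty acid carrier, and Lipe, a lipase, differed by -1.38 (SE 0.36) and -1.07 (SE 0.18).

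Immediate early genes and feedback regulators of MAP kinases had 5 of 41 genes listed, 4 of which fell. Dusp1, a phosphatase that switches MAP kinases off, had 2861, 2772 and 2573 in E-SCs, 7416, 7621 and 7624 in M-SCs and 5743, 5581 and 5978 in SCs. The difference between E-SCs and M-SCs was -1.47 (SE 0.04), and here SCs lay nearer to M-SCs. Fosb, which pairs with Jun proteins to form AP-1, had 446, 430 and 476 in E-SCs, 1019, 1277 and 1184 in M-SCs and 1230, 1391 and 1168 in SCs, a difference of -1.36 (SE 0.09). Klf2 and Ier3, both induced early by stimuli, differed by -1.81 (SE 0.26) and -1.18 (SE 0.07). Arc, an activity-induced gene of neurons, was a low gene that rose by 1.11 (SE 0.39).

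Akap12 dominated the genes that were higher after exosomes. It encodes a scaffold, also known as gravin, that anchors protein kinase A and other signalling enzymes near the membrane. Its scaled counts were 179550, 177394 and 188040 in E-SCs, 36936, 37008 and 36611 in M-SCs and 117315, 123070 and 123876 in SCs. The 3 groups did not overlap, with E-SCs highest and M-SCs lowest. The E-SCs minus M-SCs difference was 2.30 (SE 0.02, limma adjusted p = 1.9e-11), and the level was 851 ± 23 FPKM in E-SCs against 171 ± 0.74 in M-SCs. This gene alone held 33.7 to 35.03% of the reads over listed genes in E-SCs libraries and 7.43 to 7.51% in M-SCs libraries. On the list of kinase A anchoring and cyclic nucleotide breakdown, the other two listed genes of 35, the phosphodiesterases Pde3b and Pde8a, fell with few reads, 22 and 29 over the M-SCs libraries. The call for Pde8a did not hold when E-SCs library 1 or 3, or M-SCs library 2 or 3, was left out.

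Tnfsf18, the ligand GITRL that stimulates T cells through its receptor GITR, had 1388, 1345 and 1345 in E-SCs, 118, 117 and 140 in M-SCs and 646, 728 and 808 in SCs. The groups again fell in the order E-SCs, SCs, M-SCs without overlap. The difference of 3.43 (SE 0.09, limma adjusted p = 6.1e-09) was the largest among genes above 10 FPKM in a group. One predicted gene just under that level, AABR07025051.3, had 80, 83.5 and 58.8 in E-SCs against 3.73, 2.23 and 5.17 in M-SCs, a difference of 4.03. The other listed members of the TNF family list, 3 of 35, fell. These were the ligands Tnfsf15 and Tnfsf10 and the receptor Tnfrsf19, with differences of -1.75 (SE 0.36), -1.57 (SE 0.39) and -1.18 (SE 0.18).

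Klra2, a member of the lectin-like Ly49 receptor family of natural killer cells, had 207, 169 and 182 in E-SCs, 13.0, 26.8 and 9.47 in M-SCs and 42.6, 69.5 and 84.6 in SCs, a difference of 3.54 (SE 0.36). It was low in absolute terms, at 1.59 ± 0.17 FPKM in E-SCs, and genes of this family are close copies whose reads the authors' counting could split. Il10, an anti-inflammatory cytokine, had 47, 81.5 and 121 in E-SCs against 15.8, 10.045 and 18.9 in M-SCs, a difference of 2.34 (SE 0.41). Its E-SCs libraries spread widely without reaching M-SCs. Il11, a cytokine of the interleukin-6 family, was tighter, with 138, 159 and 136 against 28.0, 42.4 and 43.9, a difference of 1.92 (SE 0.22).

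Il10 and Il11 were higher in E-SCs, and Il16 was lower, among the 3 listed genes of 48 on the interleukin list. Il16 rested on 13 reads in M-SCs libraries and 0 in E-SCs, its values overlapped at 0, and its call did not hold under 10 of 12 alternative settings. Il9r, an interleukin receptor subunit that is not on that list, had 131, 138 and 158 in E-SCs against 20.5, 14.5 and 8.61 in M-SCs, a difference of 3.28 (SE 0.33) at a level below 1 FPKM. The series title names Sox11, Il7 and Il22ra2, and none of these 3 genes was among the 555.

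Genes of the integrated stress response were higher in E-SCs relative to M-SCs. Of 44 genes on that list 3 were listed, and all 3 rose, with a median of 1.40, beside 36.6% of the whole table called higher. Gadd45a, a stress sensor that slows the cell cycle, had 8500, 8143 and 8320 in E-SCs, 2584, 2958 and 3028 in M-SCs and 6811, 6503 and 6624 in SCs, a difference of 1.55 (SE 0.06). Trib3, a pseudokinase induced by the factor ATF4, had 7185, 7053 and 7062 in E-SCs, 2760, 2622 and 2666 in M-SCs and 6957, 6449 and 6719 in SCs, a difference of 1.40 (SE 0.03). The cytokine Gdf15 differed by 1.01 (SE 0.12). For both abundant genes SCs lay nearer to E-SCs than to M-SCs. Plk2, a kinase among the p53 targets, was the single listed gene of 29 on that list and rose by 1.02 (SE 0.04). Hspa9, the mitochondrial HSP70, rose by 1.03 (SE 0.02) at 358 ± 7.7 FPKM in E-SCs, while Hspa8, the cytosolic constitutive HSP70, differed by -1.01 (SE 0.05) and was the one listed gene of 19 heat shock genes. Mast2, a microtubule-associated kinase, rose by 1.26 (SE 0.02).

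Ligands of the TGF-beta family were among the genes that rose. Of 39 genes on the list 5 were listed, 3 higher and 2 lower. Tgfb2 had 239, 225 and 247 in E-SCs, 83.9, 52.5 and 69.7 in M-SCs and 188, 266 and 272 in SCs, a difference of 1.80 (SE 0.19). Inhba, the activin A subunit, had 304, 303 and 337 in E-SCs, 96.9, 61.4 and 95.6 in M-SCs and 146, 226 and 212 in SCs, a difference of 1.91 (SE 0.19). Neither ligand overlapped between E-SCs and M-SCs. Id4, a helix-loop-helix repressor that BMP signals induce, had 646, 680 and 560 in E-SCs, 142, 191 and 183 in M-SCs and 486, 534 and 628 in SCs, a difference of 1.87 (SE 0.14). Smad7, the inhibitory SMAD, fell, with a difference of -1.05 (SE 0.11), and so did the low gene Id2, at -1.15 (SE 0.42).

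Matrix and adhesion genes split, with 4 of the 9 listed genes of 118 higher and 5 lower. Ctgf, a matricellular protein that YAP and TGF-beta induce, was the most abundant of them and rose by 1.02 (SE 0.03) to 154 ± 3.6 FPKM in E-SCs. Lox, which cross-links collagen, fell, with 1115, 961 and 1012 in E-SCs, 3783, 4007 and 3922 in M-SCs and 1558, 1755 and 1856 in SCs, a difference of -1.92 (SE 0.06). Col20a1, a minor collagen, and Cdh6, a cadherin, rose by 1.43 (SE 0.14) and 1.03 (SE 0.18). Itga2, Vcan, Col7a1 and Itgb8 were below 1 FPKM and lay between -1.99 and -1.34, and Timp3 had 16 reads in E-SCs against 0 in M-SCs.

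Genes tied to Schwann cells and myelin were 4 of 41, 2 in each direction. Prx, a scaffold of the myelin sheath, had 945, 873 and 1034 in E-SCs, 423, 359 and 442 in M-SCs and 1055, 1052 and 893 in SCs, a difference of 1.22 (SE 0.10). Pmp22, a membrane protein of compact peripheral myelin, had 899, 854 and 824 in E-SCs against 1639, 1868 and 1732 in M-SCs and fell by 1.02 on the log2 scale (SE 0.07). Gli1, a transcription factor of the hedgehog pathway, had 0, 0 and 6.92 in E-SCs against 42.9, 22.3 and 14.6 in M-SCs, a difference of -3.66 (SE 0.87) at a level below 1 FPKM in both groups.

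Signals between nerve and glia were mixed as well. Of 57 neurotrophic and growth factors 5 were listed, with Bdnf higher and the other 4 lower. Angpt1 and Angptl2, described above, were among these 4. Bdnf, the brain-derived neurotrophic factor, had 1547, 1589 and 1706 in E-SCs, 826, 530 and 787 in M-SCs and 1387, 1414 and 1492 in SCs, a difference of 1.20 (SE 0.15). Nrg2, a neuregulin, differed by -1.36 (SE 0.40). Among 57 axon guidance genes 3 were listed. Sema3d, a secreted semaphorin, rose by 1.52 (SE 0.12), and Efna5, an ephrin, and Sema7a, a membrane-anchored semaphorin, fell by 1.01 (SE 0.24) and 3.09 (SE 0.51).

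A few further genes higher in E-SCs were picked after their values were seen. Map1b, a microtubule-associated protein of growing axons, had 22337, 22454 and 23795 in E-SCs against 8575, 8288 and 8212 in M-SCs, a difference of 1.45 (SE 0.03). Flrt3, an adhesion and guidance receptor, had 6884, 6996 and 7164 against 3165, 3074 and 2832, a difference of 1.22 (SE 0.05). Prickle1, a planar polarity protein, had 2843, 2825 and 3100 against 830, 817 and 766, a difference of 1.86 (SE 0.06). All 3 genes were far apart between the groups relative to the spread of their libraries. Lpar1, a lysophosphatidic acid receptor, rose by 1.51 (SE 0.10). Snai2, a transcriptional repressor expressed in the neural crest, and Vgf, a secreted neuropeptide precursor, rose by 1.36 (SE 0.12) and 1.35 (SE 0.13).

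**Figure D4:**
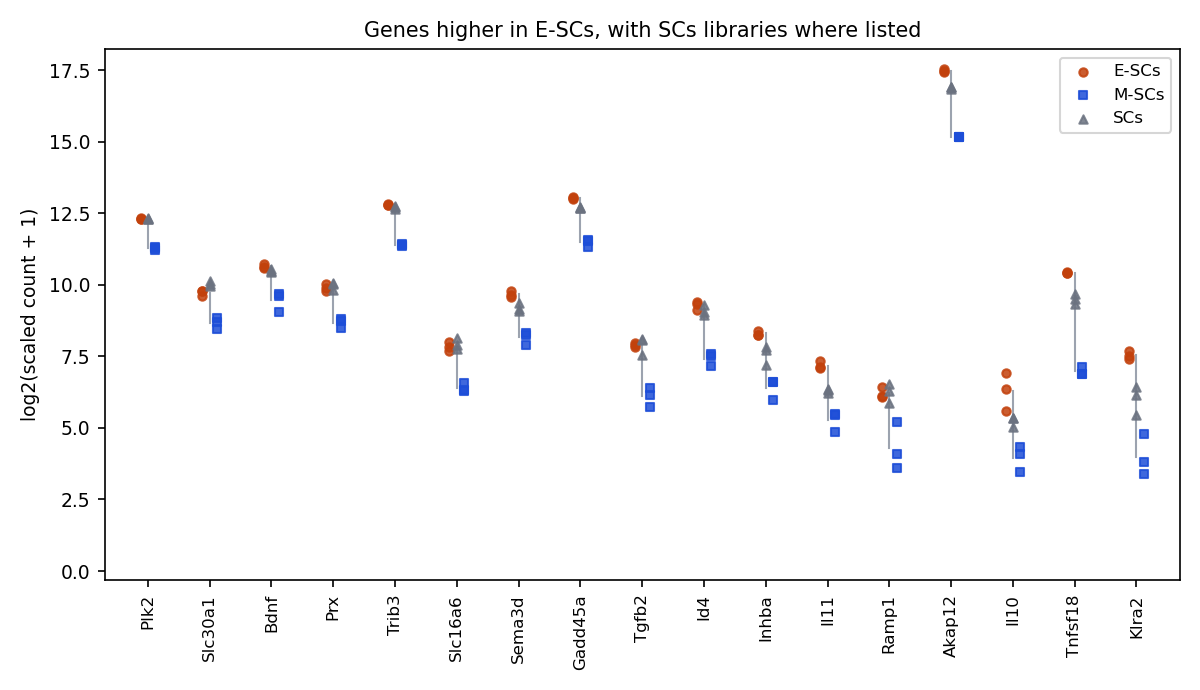
Points are the log2(scaled count + 1) values of the 3 libraries each of E-SCs, M-SCs and SCs for 17 genes higher in E-SCs than in M-SCs, picked from those described; vertical lines join the E-SCs and M-SCs means. Akap12 is the most abundant by scaled count, and Tnfsf18, Akap12 and Klra2 have SCs between the other groups, while Trib3, Plk2 and Prx have SCs at or near E-SCs. SCs values exist only for genes that the authors also listed for a pairing with SCs, which partly fixes where they lie.

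Notch and Wnt signalling had 4 of 56 genes listed, of which 3 fell. Hes1, a Notch-induced repressor, had 191, 202 and 222 in E-SCs, 514, 811 and 669 in M-SCs and 764, 717 and 826 in SCs, a difference of -1.67 (SE 0.16). The ligands Jag1 and Wnt4 fell by 1.11 (SE 0.12) and 1.55 (SE 0.38). Sfrp4, a secreted Wnt binder, rose by 1.15 (SE 0.34), a call that did not hold without the second E-SCs library (adjusted p = 0.0566). Prdm1, the repressor also called Blimp-1, had 28, 36.1 and 21.9 in E-SCs, 285, 258 and 199 in M-SCs and 57.7, 68.5 and 67.4 in SCs, a difference of -3.08 (SE 0.24). The single listed gene of 21 clock and glucocorticoid targets was Klf15, a transcription factor, at 1.01 (SE 0.31), a call not held without the second E-SCs library (adjusted p = 0.0678) or the first M-SCs library (0.0507).

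Solute carriers were a larger group, with 15 listed, 10 lower and 5 higher. All 15 passed the test, as did 92.1% of the whole table, of which 58.6% was lower in E-SCs. Slc6a6, which imports taurine, had 633, 628 and 574 in E-SCs against 1827, 1817 and 1715 in M-SCs, a difference of -1.55 (SE 0.06). Slc16a6, a monocarboxylate transporter family member, rose by 1.43 (SE 0.15). Of 14 ion channel genes 8 fell, 4 rose and 2 did not pass the test, and all but Clca4l and Cacna1i were below 1 FPKM in both groups. Clca4l, a chloride channel accessory protein by family, had 339, 380 and 439 in E-SCs against 2556, 2615 and 2387 in M-SCs, a difference of -2.71 (SE 0.09).

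**Figure D5:**
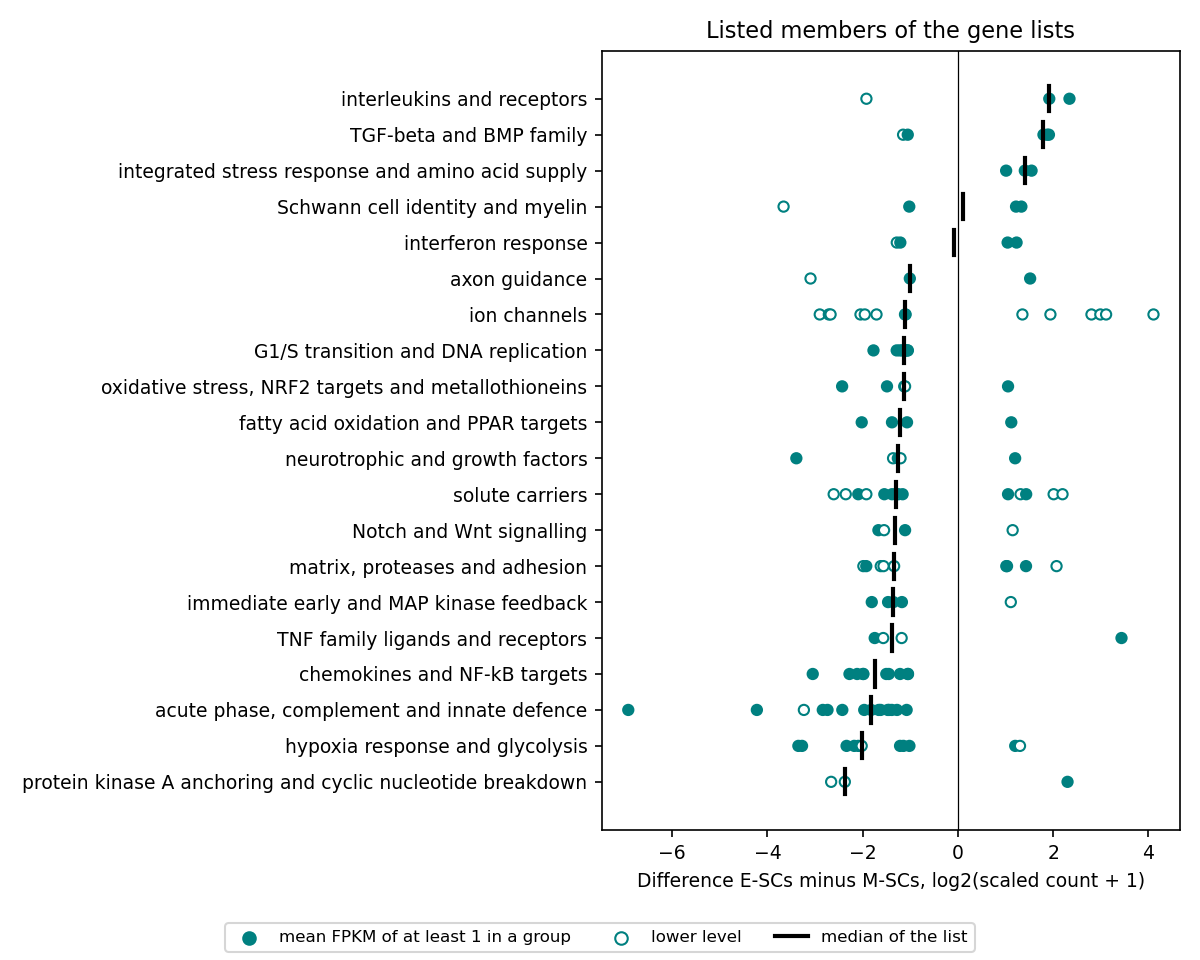
Each point is a listed gene on the E-SCs minus M-SCs axis, log2(scaled count + 1), for the 20 lists with at least 3 listed genes; filled points average 1 FPKM or more in either group and black bars are medians. The chemokine, acute-phase and replication lists lie wholly below 0 and the integrated stress list wholly above it, while the other lists have points on both sides.

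Read by the pathway annotation in the authors' deposited table, 219 of the 555 genes carried a KEGG pathway, with 150 of them lower in E-SCs and 69 higher. The TNF signalling pathway had 12 listed genes, 10 of which fell and 2 rose. IL-17 signalling had 11, with 10 that fell, and its median difference was -1.99. These pathways share Cxcl1, Cxcl3, Ccl2 and Nfkbia, which fell, and Mapk10, which rose, so their counts are not separate. Cytokine and receptor interaction was divided, with 9 genes that fell, the chemokines and Csf3 among them, and 7 that rose, among them Il10, Il11, Tgfb2 and Tnfsf18. Of the PI3K-Akt pathway's 11 genes 9 fell, and of the MAPK pathway's 16 genes 10 fell.

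At the edges of the selection the differences were close to the 2-fold limit. Among the genes just inside it, Gtpbp2 had 4227, 4282 and 3998 in E-SCs against 2138, 1974 and 2141 in M-SCs, a difference of 1.0 (SE 0.05). Tmem150c differed by 1.0 (SE 0.22) and Tgm2 by -1.0 (SE 0.42). Genes just outside the limit were not analysed here. Around the level limit of 1 FPKM, Lsmem2 stood just above at 1.01 FPKM with a difference of 1.15, and Ankrd37 just below at 0.992 FPKM with a difference of -2.02.

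Some listed genes were detected in a single group. In M-SCs 44 genes had no read in any of the 3 libraries, and in E-SCs 27 genes had none. Rn60_20_0051.7, a predicted gene, had 78, 50.5 and 10.4 in E-SCs and 0 in every M-SCs library, which makes it at least 50.02-fold higher in E-SCs against a floor of 3 reads over the group. Leaving out each library in turn, an alternative chosen after seeing the data, this bound ran from 31.5 to 67.3, with 32.9 without the first E-SCs library and 31.5, 32.9 and 35.7 without an M-SCs library. Piezo2, a mechanically gated channel, had 16, 16.5 and 16.1 in E-SCs against 0 in M-SCs, or at least 16.9-fold higher (10.6 to 17.04 with each library left out in turn, and lowest without the third M-SCs library). In the other direction Cd83, a surface protein of mature dendritic cells, had 15.8, 7.81 and 11.2 in M-SCs and 0 in E-SCs, or at least 11.2-fold lower in E-SCs (7.24 to 12.7 in the same way, and lowest without the first E-SCs library). These genes were all scarce, and 110 genes of the table had fewer than 20 reads in every library.

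A further 6 genes had at least 100 reads in 1 library and 0 in another of the same group. Faim, an inhibitor of apoptosis signalling, had 260 reads in the first E-SCs library and 0 in the other 5. Mrpl1, a mitochondrial ribosomal protein gene, had 143 reads in the second E-SCs library alone, and Galr2, a galanin receptor, 127 reads in the first M-SCs library alone. None of the 6 passed the test, with limma adjusted p-values of 0.197 to 0.202, and no difference is given for them.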

How the data were processed

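RNA of 3 E-SCs and 3 M-SCs libraries was analysed, with 3 SCs libraries as a further level. Per the labels' protocols, mRNA was enriched on oligo(dT) beads and sequenced paired-end. Per the submitters' processing notes, HISAT2, StringTie and the mouse build mm10 were used, with no version or role stated. All 555 gene identifiers are rat Ensembl identifiers, so no coordinates or sequences are given.

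The log2 values deposited by the authors fit log2(scaled count + 1), the scaled count being reads corrected for library depth. Converted back, 100% of the values up to 1000 reads were whole reads within 0.01 in every library. FPKM values were deposited by the authors too, as were the p-value and FDR columns, whose test was not stated. The log2 fold column in the authors' deposited table is M-SCs minus E-SCs and was not used for direction. A gene's values are the same in each of the authors' deposited tables that lists it, so SCs values could be set beside the 287 genes that another pairing also lists.

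Genes were tested with limma 3.58.1 (R 4.3.3, trended prior variance), without covariates, over the 555 genes with Benjamini-Hochberg adjustment and a threshold of 0.05. Python 3.11.15 with scipy 1.17.1, numpy 2.4.6, pandas 2.3.3 and matplotlib 3.10.9 served for the rest. The scripts were tested on simulated data. Exact 95% binomial intervals and the floor of 3 reads over a group cover counting error only. No library repeated another, since the chi-square between replicates was 4.67 to 12.5 for each degree of freedom. Library totals are unknown, since the table holds selected genes.

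The genes, the 25 gene lists, the 5 marker lists and the rule for named genes were chosen with earlier results of these data known. The rule took the 10 largest differences in each direction at 1 FPKM or more, the 6 most abundant genes in each direction, up to 4 members per list, and genes at the edges, under 1 FPKM or seen in single libraries, 111 in all. Some genes named outside it are marked as picked after their values were seen. Others outside it are not marked, many of them further members of the gene lists, such as Cxcl3, Nfkbia and C1s. Calls were followed gene by gene under the alternatives for the 111 genes only. Gene Ontology terms were not used, and some listed genes are not reported here.

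Alternatives were a pseudocount of 0.1, filters at a mean FPKM of 1 and a mean log2 value of 5, equal library medians, log2(FPKM + 1), voom on recovered reads, no trend, a replicate block, the authors' FDR, and leaving out each library.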

Additional observations from a re-analysis of the deposited data

How the results depend on the processing

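The count of 511 genes stayed within 1.5 times under most settings. It was 466 with a pseudocount of 0.1, 469 on log2(FPKM + 1), 479 without a trend, 501 with voom on recovered reads, 460 with equal library medians (225 higher, 235 lower) and 441 by the authors' FDR. Leaving out each library in turn gave 429 to 440 genes, 168 to 178 of them higher and 257 to 271 lower. Filters reduced it by testing fewer genes, to 270 of 282 genes at a mean FPKM of at least 1 (100 higher, 170 lower) and to 270 of 270 where the log2 value averaged 5 or more (98 higher, 172 lower). Same-numbered libraries of both groups did not deviate together (correlations of -0.19, -0.11 and -0.09 over 270 genes), and no library correlated best with its own number. The replicate block gave 493 calls (202 higher, 291 lower), 481 of them shared with the fit without it. Among the 111 genes named by the rule, 13 changed their call under some alternative, in 60 of 1501 cases, and none changed sign. These were AABR07030598.1, AABR07030919.1, Aldh8a1, Aloxe3, Il16, Klf15, Nt5e, Oas1a, Pde8a, S100a8, Sfrp4, Tgm2 and U6atac. Without the single library that holds their reads, the difference of Faim, Mrpl1, LOC100911727, LOC108348298 and AABR07002627.1 becomes 0. For lists, the number of calls moved in 21 of 387 cases, mostly under the filters and for lists with 1 listed gene. Low depth limits the 110 genes with fewer than 20 reads in every library, of which 98 passed the test.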

Other observations

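Small nuclear and nucleolar RNAs, grouped after their values were seen, numbered 9 in the table, 8 higher and 1 lower in E-SCs, and the test called all 9, beside 92.1% called over the whole table. SNORD47, a guide for ribosomal RNA methylation by family, was the highest by FPKM, with 101, 89.7 and 79.5 scaled counts in E-SCs, 43.8, 45.8 and 34.4 in M-SCs and 99.4, 86.6 and 80.3 in SCs, a difference of 1.11 (SE 0.22). The spliceosomal RNA U6 had 22, 11.3 and 17.3 in E-SCs against 3.73, 2.23 and 1.72 in M-SCs, a difference of 2.32 (SE 0.49). SNORD14 went the other way, at -1.27 (SE 0.43). These RNAs are short and mostly lack a poly(A) tail, FPKM of so short a transcript is high at few reads, and U6atac rested on 12 reads in E-SCs libraries. Whether carry-over of such RNA differed between the groups was not tested.

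Below 1 FPKM 124 genes were higher and 149 lower in E-SCs. The share lower was 38.5% of 65 genes under 0.1 FPKM, 59.6% of 208 genes from 0.1 to 1, 60.7% of 163 genes from 1 to 10, 63.6% of 99 genes from 10 to 100 and 70.0% of 20 genes above 100, and these shares were not tested against each other. In the ion channel group the genes that rose were Piezo2, Kcnk2, Ano3 and Kcnh4, with 46, 52, 20 and 30 reads over the E-SCs libraries and 0, 6, 0 and 3 over the M-SCs libraries. Scn4a, a sodium channel of muscle, had 0 reads in E-SCs against 23 in M-SCs. One gene, Pigz, is listed under 2 identifiers with equal values and was counted under each.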
